A study of Homo sapiens with 16 samples.

Results

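The transcripts of 10 lysine acetyltransferase genes were followed in NCI-H1299 cells given MS78, a bifunctional compound built to recruit p300 and CBP, which are acetyltransferases, to p53-Y220C, a mutant protein. The genes were EP300 (p300), CREBBP (CBP), KAT2A, KAT2B, KAT5, KAT6A, KAT6B, KAT7, KAT8 and HAT1, a list of 10 by name among the 56865 genes of the tables, which was drawn up with earlier results of these data known. All 10 had enough reads to be among the 15687 genes tested, with 313 to 3085 reads per library. The question was whether a compound that recruits p300 and CBP alters the transcripts of these enzymes themselves. NCI-H1299 was grown from a human non-small cell lung cancer and has no p53. The 4 groups, each of 4 poly(A) RNA libraries, were p53-Y220C cells given 10 µM MS78 for 24 h (Y220C MS78), p53-Y220C cells given the vehicle DMSO for 24 h (Y220C DMSO), p53-null cells given 10 µM MS78 for 24 h (Null MS78) and p53-null cells given DMSO for 24 h (Null DMSO). The p53-Y220C cells were NCI-H1299 stably expressing the mutant and kept under G418, which the p53-null cells were not, so line, transgene and G418 cannot be told apart. The sources do not say whether the stable line is 1 clone or whether replicates were separate cultures, so a p-value here covers the spread among libraries, which may be technical.

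Lysine acetyltransferases move an acetyl group from acetyl-CoA to lysines of histones and other proteins, p53 among them. p300 and CBP are large paralogous coactivators that many transcription factors recruit. KAT2A (GCN5) and KAT2B (PCAF) are the paralogous catalytic subunits of SAGA and ATAC, and the MYST family holds KAT5 (Tip60, in NuA4), KAT6A (MOZ) and KAT6B (MORF) with BRPF scaffolds, KAT7 (HBO1) with JADE or BRPF scaffolds, and KAT8 (MOF) in the MSL and NSL complexes. HAT1 acetylates newly made histone H4 before it is placed on DNA.

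The upstream DNA of 3 of these genes is shown for a member whose transcript did not pass the test in either line under MS78 (CREBBP), one that passed in both (HAT1) and one that passed in p53-null cells (KAT2A). RefSeq promoter windows (GRCh38.p14) were found for 8 of the 10 genes and not for KAT6A or KAT8, and the bases shown lie before both the RefSeq start and the GENCODE 29 gene. They are chr16:3880727-3880963 on the minus strand for CREBBP, chr2:171922211-171922447 on the plus strand for HAT1 and chr17:42121368-42121617 on the minus strand for KAT2A. Capitals mark the motifs searched on both strands of the 250 bases before each RefSeq start: the GC box GGGCGG, the CCAAT box CCAAT, the cAMP response element core TGACG and the heat shock element core GAANNTTC.
CREBBP: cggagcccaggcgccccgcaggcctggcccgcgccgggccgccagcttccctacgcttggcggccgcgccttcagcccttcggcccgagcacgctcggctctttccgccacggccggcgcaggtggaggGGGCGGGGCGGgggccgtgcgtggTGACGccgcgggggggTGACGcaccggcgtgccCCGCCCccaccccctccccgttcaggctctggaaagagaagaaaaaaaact
HAT1: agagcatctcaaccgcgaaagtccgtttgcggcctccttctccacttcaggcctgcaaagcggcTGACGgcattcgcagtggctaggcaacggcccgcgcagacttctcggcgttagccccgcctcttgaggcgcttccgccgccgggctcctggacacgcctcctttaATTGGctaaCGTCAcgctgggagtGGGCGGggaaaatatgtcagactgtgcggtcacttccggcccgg
KAT2A: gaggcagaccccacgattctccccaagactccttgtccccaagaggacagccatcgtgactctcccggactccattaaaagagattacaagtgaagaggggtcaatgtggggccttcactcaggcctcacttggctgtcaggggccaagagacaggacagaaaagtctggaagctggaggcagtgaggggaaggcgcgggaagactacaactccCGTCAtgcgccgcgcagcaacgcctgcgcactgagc
The CREBBP stretch, from the first of its 2 RefSeq starts, held TGACG at 97 and 81 bases before the start, and GGGCGG 3 times on either strand, of which a pair shares bases. HAT1 held TGACG at 186 and 72 bases before its start, 1 CCAAT match and 1 GGGCGG match. KAT2A held TGACG once, 36 bases before its start. Over the 35116 promoter windows of the table, 21.2% held TGACG, 42.6% GGGCGG, 32.01% CCAAT and 5.78% GAANNTTC. TGACG was also found in the windows of KAT5 and KAT7, and was not found in those of EP300, KAT2B or KAT6B. GAANNTTC was in none of the 8 genes' windows, and that of EP300 held none of the 4 motifs. The windows of EP300, KAT2B, KAT5 and KAT6B, and the second of CREBBP, lie within the GENCODE 29 gene. They hold 0 bases before both starts, so their motif results do not describe DNA upstream of that gene. These matches are letters in a window, and binding was not measured.

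Depth was 20.3 to 27.7 M reads per library. The labelled line was checked with markers: KRT8, KRT18 and VIM, cytoskeletal genes of this carcinoma line, had at least 3748 reads in every library, while the epithelial genes EPCAM and CDH1 had 3 to 42 and the lung lineage factor NKX2-1 had 0 to 7. KRT8, VIM and KRT18 fell with MS78 in p53-Y220C cells, by 0.44, 0.41 and 0.38 on the log2 scale (edgeR's quasi-likelihood test, adjusted p at most 8.28e-07). KRT8 and KRT18 did not pass in p53-null cells. Reads of PTPRC, the pan-leukocyte gene, were at 55 to 99 in 8 libraries (replicates 2, 3 and 4 of both MS78 groups and replicate 1 of both DMSO groups) and at 0 or 1 in the other 8. The 13 leukocyte markers summed to 1143 to 2548 reads in those 8 libraries, against 44 to 241 in the others, where CD2 and CD3E were at 0. CORO1A, 1 of the 13, overlapped, with 133 to 344 reads in libraries with PTPRC reads and 40 to 233 in those without. Fibroblast markers summed to 39 to 158 reads. The mitochondrially encoded share of reads was 3.41% to 3.77% in Y220C MS78, 3.66% to 4.09% in Y220C DMSO, 2.89% to 3.27% in Null MS78 and 3.22% to 3.67% in Null DMSO libraries. It ranged lower with MS78 in both lines, with overlapping groups. Gene by gene, 6 of the 13 mitochondrially encoded genes rose and 1 fell in p53-Y220C cells (median log2 change 0.13), and 0 rose and 3 fell in p53-null cells (median -0.12). The share that passed was 53.8% in p53-Y220C cells, against 48.5% of all genes tested, and 23.1% in p53-null cells, against 28.1%. The part of the mitochondrially encoded genes in the results was not tested. Because 3 of 4 MS78 libraries but 1 of 4 DMSO libraries of each line held PTPRC reads, each call on the 10 genes that did not hold within these sets of 8 is named. In such a set each arm has 3 libraries or 1, and a lone library is taken to vary like the others.

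Per length, HAT1 was by far the most abundant of the 10 transcripts and KAT6B the least. Mean TPM over the 16 libraries was 100.4 for HAT1, 31.96 for KAT7, 22.3 for KAT5, 21.0 for KAT8, 13.4 for KAT2A, 9.71 for KAT2B, 8.45 for CREBBP, 6.79 for KAT6A, 6.55 for EP300 and 5.23 for KAT6B. The ranges over libraries did not overlap between HAT1 and KAT7, KAT7 and KAT5, or KAT8 and KAT2A. Every other pair of neighbours in this order overlapped, though KAT2A was above KAT2B in 16 of 16 libraries. EP300 and KAT6A in particular could not be ordered, KAT6A being the higher in 7 of 16 libraries. Among the 13372 tested protein-coding genes, HAT1 stood at percentile 89.7 of mean TPM, CREBBP at 38.5, EP300 at 33.5 and KAT6B at 29.4. The 2 enzymes that MS78 is built to recruit thus had transcript levels per length below the median of protein-coding genes, which was 13.7 TPM.

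**Figure D1:**
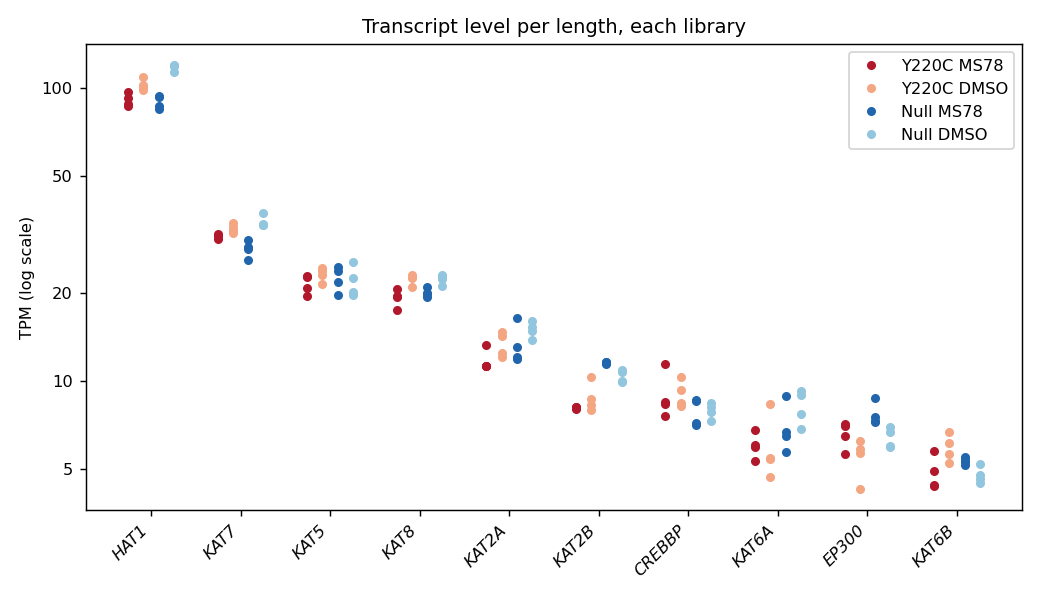
TPM (log scale) of each acetyltransferase gene in each of the 16 libraries, ordered by mean, with the groups coloured. HAT1 sits between 85.1 and 119.9 TPM, and EP300, KAT6A and KAT6B lie together under 10 TPM.

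MS78 was followed by small changes in these transcripts, none larger than 1.29-fold in either line. In p53-Y220C cells EP300 and KAT6A rose and KAT5, KAT6B and HAT1 fell, 5 of 10 genes where 48.5% of all genes tested were called (24.9% rose and 23.6% fell). In p53-null cells EP300, KAT2B and KAT6B rose and KAT2A, KAT7 and HAT1 fell, 6 of 10 genes against 28.1% of all genes (14.8% rose and 13.3% fell). A call means an adjusted p under 0.05 in edgeR's quasi-likelihood test, adjusted over all genes tested. The share called in p53-Y220C cells was thus near the background. The median size of change of the 10 genes was 0.14 on the log2 scale in p53-Y220C cells, where it was 0.24 over all genes, and 0.19 in p53-null cells, where it was 0.14 over all genes. EP300 was the only member that rose in both lines and HAT1 the only one that fell in both, while CREBBP and KAT8 passed in neither. The groups did not overlap for 1 gene in p53-Y220C cells (KAT8, which missed the threshold) and for 5 in p53-null cells (EP300, KAT2B, KAT6B, KAT7 and HAT1), where 41.3% and 29.3% of all genes tested did not overlap. The response itself differed between the lines for 5 of 10 genes, against 26.8% of all genes (14.4% higher and 12.4% lower in p53-Y220C): it was higher in p53-Y220C cells for KAT6A and HAT1 and lower for KAT2B, KAT5 and KAT6B. None of these 5 differences passed within either set of libraries split by PTPRC reads. In bulk RNA, fewer cells with a transcript and less of it per cell cannot be told apart.

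**Figure D2:**
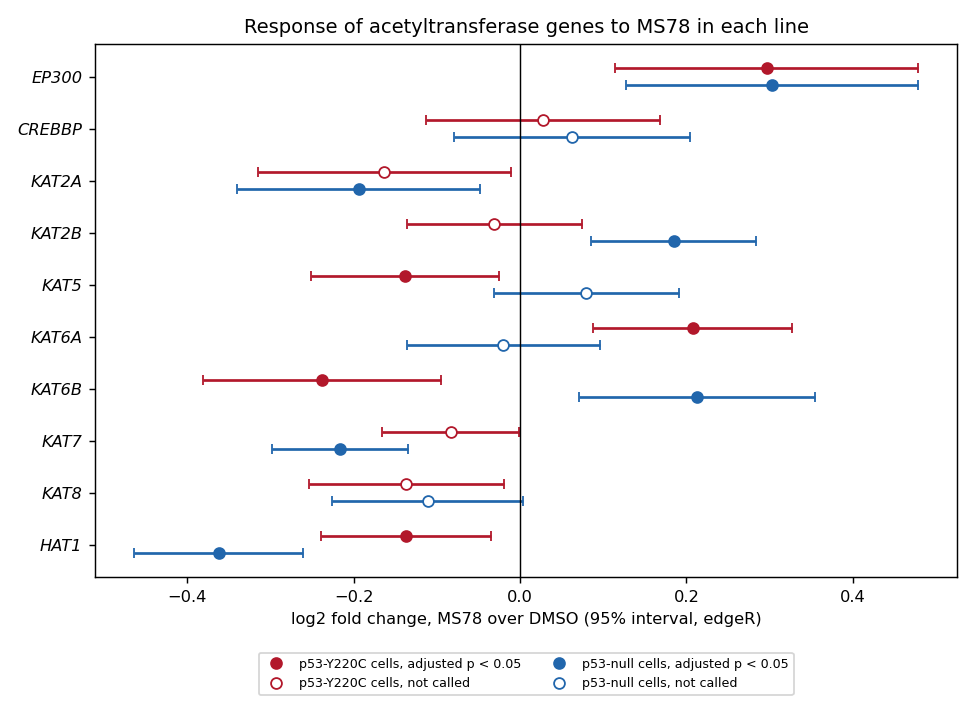
Log2 fold change, MS78 over DMSO, of each gene with its 95% interval in p53-Y220C cells (red) and p53-null cells (blue). Filled points passed an adjusted p of 0.05. EP300 lies at 0.30 in both lines, and the KAT6B points lie on opposite sides of 0.

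EP300 (ENSG00000100393, chr22:41091786-41180079, plus strand of GRCh38) is the gene of p300. It was measured at 47.0, 52.5, 57.6 and 55.1 CPM (the count scaled to library size) in the 4 Y220C MS78 libraries, against 44.3, 34.3, 45.8 and 48.0 CPM in the Y220C DMSO libraries. MS78 replicate 1 lay below DMSO replicate 4, so the groups overlapped there, and DMSO replicate 2 was the lowest of all 16 libraries. In p53-null cells EP300 was at 58.6, 66.8, 55.5 and 57.3 CPM with MS78, against 49.9, 45.5, 45.3 and 52.6 CPM with DMSO, and every MS78 library lay above every DMSO library. The means were 53.04 ± 4.55 and 43.1 ± 6.05 CPM in p53-Y220C cells with MS78 and DMSO (SD, n = 4 each), a log2 fold change of 0.30 (SE 0.09, adjusted p = 0.00794). In p53-null cells they were 59.6 ± 4.99 CPM with MS78 and 48.3 ± 3.57 CPM with DMSO, again 0.30 (SE 0.08, adjusted p = 0.00968). The responses of the lines differed by -0.01, with a 95% interval of -0.26 to 0.25, so a difference within that interval was not excluded. The p53-Y220C call was lost among libraries without PTPRC reads (0.14, adjusted p = 0.585) and kept among those with them (0.32, adjusted p = 0.0188). The p53-null call was lost in both sets (0.25, adjusted p = 0.0865 with PTPRC reads, and 0.29, adjusted p = 0.335 without) and without Null MS78 replicate 2 (0.24, adjusted p = 0.0513).

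CREBBP (ENSG00000005339, chr16:3725054-3880726, minus strand), the gene of CBP and the closest relative of EP300, passed the test in neither line. Nor did the ratio of EP300 to CREBBP reads within a library pass between MS78 and DMSO. Its adjusted p was 0.0571 in p53-Y220C and 0.0686 in p53-null cells (exact permutation tests). In p53-Y220C cells the ratio groups did not overlap, and the unadjusted exact p of 0.0286 was the smallest that 4 libraries against 4 allow. The miss there came from the adjustment, so it does not show that the ratio was unchanged. CREBBP was at 55.5, 64.5, 57.9 and 68.1 CPM in the Y220C MS78 libraries, against 58.2, 55.4, 58.9 and 68.8 CPM with DMSO. Null MS78 libraries had 50.1, 53.6, 52.2 and 46.2 CPM, against 50.1, 49.3, 47.2 and 47.3 CPM with DMSO. High and low libraries were found in both groups of each line, and the groups overlapped throughout. The log2 fold change was 0.03 in p53-Y220C cells (95% interval -0.11 to 0.17, adjusted p = 0.762) and 0.06 in p53-null cells (-0.08 to 0.20, adjusted p = 0.552).

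**Figure D3:**
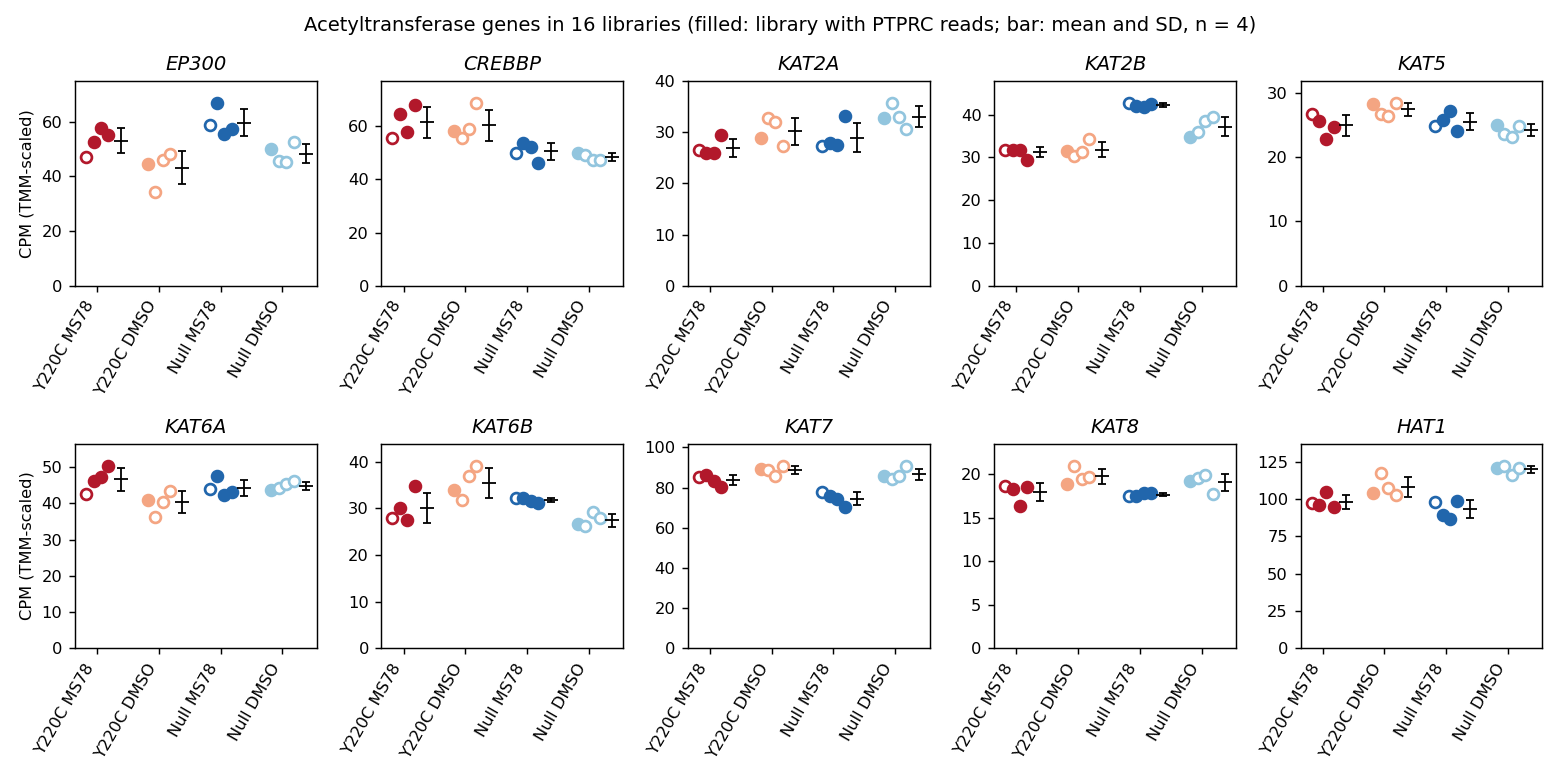
CPM of the 10 genes in each library, with the mean and SD of 4 libraries beside each group and filled points for libraries with PTPRC reads. EP300 is higher with MS78 in both lines, and HAT1 in p53-null cells is between 87.0 and 98.6 CPM with MS78, below all 4 DMSO libraries.

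KAT2A and KAT2B are alternatives for the same place in SAGA and ATAC. KAT2A (ENSG00000108773, chr17:42113108-42121358, minus strand) was at 27.3, 27.8, 27.6 and 33.2 CPM in Null MS78 libraries, against 32.7, 35.8, 33.0 and 30.7 CPM with DMSO. Only MS78 replicate 4 reached the DMSO range, and KAT2A fell by 0.19 on the log2 scale (SE 0.07, adjusted p = 0.0442). That call was lost under 17 of 27 alternatives, among them leaving out Null DMSO replicate 1, 2 or 3, Null MS78 replicate 1, 2 or 3, Y220C DMSO replicate 3 or Y220C MS78 replicate 1, 2 or 3 (adjusted p = 0.0508 to 0.140). It was lost too in both PTPRC sets (-0.17, adjusted p = 0.359 with those reads, and -0.28, adjusted p = 0.237 without). In p53-Y220C cells KAT2A averaged 27.0 ± 1.72 CPM with MS78 and 30.2 ± 2.65 CPM with DMSO, a log2 difference of -0.16 that missed the threshold (adjusted p = 0.0714). It passed without Null MS78 replicate 4, Y220C DMSO replicate 4 or Y220C MS78 replicate 4 (adjusted p = 0.0434, 0.0271 and 0.0351 in that order), and with no filter on low counts (-0.17, adjusted p = 0.0302).

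KAT2B (ENSG00000114166, chr3:20040023-20154404, plus strand) was at 42.7, 42.0, 41.8 and 42.5 CPM in Null MS78 libraries, against 34.8, 35.9, 38.6 and 39.4 CPM with DMSO. All 4 MS78 libraries lay above all DMSO libraries, and KAT2B rose by 0.18 (SE 0.05, adjusted p = 0.00548). It was at 31.8, 31.7, 31.7 and 29.4 CPM in Y220C MS78 libraries, against 31.4, 30.3, 31.3 and 34.4 CPM with DMSO, with overlapping groups and a log2 difference of -0.03 (adjusted p = 0.638). The p53-null call was lost with length-scaled TPM in place of counts (0.18, adjusted p = 0.0623), without the 4 libraries numbered 1 (0.15, adjusted p = 0.0636) and among libraries without PTPRC reads (0.17, adjusted p = 0.386). The difference between the responses was -0.22 (adjusted p = 0.0254), and leaving out Null DMSO replicate 1 or 2, Y220C DMSO replicate 4 or Y220C MS78 replicate 4 took it to adjusted p = 0.0505 to 0.0525. It was lost too with length-scaled TPM (-0.27, adjusted p = 0.0558) and without the 4 libraries numbered 1 (-0.20, adjusted p = 0.102).

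Among the MYST genes the paralogues KAT6A and KAT6B moved in opposite directions in p53-Y220C cells. KAT6A (ENSG00000083168, chr8:41929479-42052026, minus strand) was at 42.5, 46.2, 47.2 and 50.4 CPM in Y220C MS78 libraries, against 40.9, 36.3, 40.4 and 43.5 CPM with DMSO, where MS78 replicate 1 lay below DMSO replicate 4. It rose by 0.21 (SE 0.06, adjusted p = 0.00496). In p53-null cells KAT6A averaged 44.2 ± 2.25 CPM with MS78 and 44.8 ± 1.17 CPM with DMSO, a log2 difference of -0.02 (adjusted p = 0.838). KAT6B (ENSG00000156650, chr10:74824927-75032624, plus strand) was at 28.03, 30.2, 27.6 and 34.7 CPM in Y220C MS78 libraries, against 34.0, 31.9, 37.0 and 39.2 CPM with DMSO. MS78 replicate 4 overlapped the DMSO group, and KAT6B fell by 0.24 on the log2 scale (SE 0.07, adjusted p = 0.00686). In p53-null cells KAT6B went the other way, at 32.2, 32.2, 31.6 and 31.2 CPM with MS78, against 26.6, 26.1, 29.1 and 27.9 CPM with DMSO, with no overlap and a rise of 0.21 (SE 0.07, adjusted p = 0.0231). The difference between the KAT6B responses, -0.45 (SE 0.10, adjusted p = 0.00157), was the largest of the 10 genes.

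The KAT6B difference was lost only in the PTPRC sets among its 26 alternatives (-0.37, adjusted p = 0.114 with those reads, and -0.57, adjusted p = 0.103 without). Its fall in p53-Y220C cells was likewise lost in both sets (-0.14, adjusted p = 0.342 with those reads, and -0.36, adjusted p = 0.0521 without), and the p53-null rise was lost there (0.24, adjusted p = 0.155, and 0.21, adjusted p = 0.358) and without Null DMSO replicate 1 or 2 or Null MS78 replicate 1 or 2 (adjusted p = 0.0503 to 0.0846), 8 of 27 alternatives in all. The KAT6A rise was lost with length-scaled TPM (0.04, adjusted p = 0.856) and among libraries without PTPRC reads (0.09, adjusted p = 0.594). The KAT6A difference between lines, 0.23 (adjusted p = 0.0400), was lost under 15 of 26 alternatives, 12 of them leaving out 1 library: any but Null DMSO replicate 1, Null MS78 replicate 2, Y220C DMSO replicate 4 and Y220C MS78 replicate 1 (adjusted p = 0.0519 to 0.0932).

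KAT5 and KAT7 each passed in 1 line. KAT5 (ENSG00000172977, chr11:65711996-65719604, plus strand) was at 26.7, 25.6, 22.8 and 24.8 CPM in Y220C MS78 libraries, against 28.2, 26.8, 26.4 and 28.4 CPM with DMSO, overlapping at MS78 replicate 1. It fell by 0.14 on the log2 scale (SE 0.05, adjusted p = 0.0416), a call lost under 14 of 27 alternatives, among them leaving out Y220C DMSO replicate 1 or 4 or Y220C MS78 replicate 2, 3 or 4 (adjusted p = 0.0505 to 0.159). Among libraries with PTPRC reads it was -0.20 (adjusted p = 0.118) and among those without -0.03 (adjusted p = 0.873). In p53-null cells it averaged 25.5 ± 1.34 CPM with MS78 and 24.2 ± 0.93 CPM with DMSO (0.08, adjusted p = 0.299). The difference of the responses was -0.22 (adjusted p = 0.0392), lost under 13 of 26 alternatives, among them leaving out Null DMSO replicate 2 or 3, Null MS78 replicate 2 or 3, Y220C DMSO replicate 1 or 4 or Y220C MS78 replicate 3 or 4 (adjusted p = 0.0564 to 0.0923). KAT7 (ENSG00000136504, chr17:49788555-49835030, plus strand) was at 77.8, 75.8, 74.1 and 70.2 CPM in Null MS78 libraries, against 85.8, 84.1, 85.8 and 90.5 CPM with DMSO. The groups were well apart, and KAT7 fell by 0.22 on the log2 scale (SE 0.04, adjusted p = 0.000239), which was lost only among libraries without PTPRC reads (-0.16, adjusted p = 0.291). In p53-Y220C cells it averaged 83.8 ± 2.59 CPM with MS78 and 88.7 ± 2.10 CPM with DMSO (-0.08, adjusted p = 0.0884). The difference between the KAT7 responses passed only with length-scaled TPM (0.21, adjusted p = 0.0459).

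KAT8 (ENSG00000103510, chr16:31115754-31131393, plus strand), the enzyme of the MSL and NSL complexes, had the fewest reads of the 10. It was at 18.6, 18.3, 16.3 and 18.5 CPM in Y220C MS78 libraries, against 18.8, 21.0, 19.4 and 19.7 CPM with DMSO. The groups did not overlap, yet the log2 difference of -0.14 missed the threshold (adjusted p = 0.0510). It passed under 5 of 27 alternatives, 3 of which left out Null DMSO replicate 4, Y220C DMSO replicate 1 or Y220C MS78 replicate 1 (adjusted p = 0.0392, 0.0392 and 0.0481 in that order). In p53-null cells KAT8 averaged 17.6 ± 0.19 CPM with MS78 and 19.1 ± 0.97 CPM with DMSO (-0.11, adjusted p = 0.148).

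HAT1 (ENSG00000128708, chr2:171922448-171983682, plus strand) gave the largest response of the 10 genes to MS78. In p53-null cells it was at 98.3, 89.6, 87.0 and 98.6 CPM with MS78, against 120.5, 121.9, 116.4 and 121.1 CPM with DMSO. All MS78 libraries lay below all DMSO libraries, and HAT1 fell by 0.36 on the log2 scale (SE 0.05, adjusted p = 6.89e-06), which was lost only among libraries without PTPRC reads (-0.29, adjusted p = 0.0741). In p53-Y220C cells it was at 97.3, 96.0, 104.9 and 94.7 CPM with MS78, against 104.1, 117.2, 107.7 and 103.0 CPM with DMSO. Here MS78 replicate 3 lay within the DMSO range, and the fall was smaller, 0.14 on the log2 scale (SE 0.05, adjusted p = 0.0265). That call was lost under 8 of 27 alternatives, among them leaving out Y220C DMSO replicate 2 or Y220C MS78 replicate 1, 2 or 4 (adjusted p = 0.0553 to 0.1097). Within the PTPRC sets it was -0.07 (adjusted p = 0.496) with those reads and -0.17 (adjusted p = 0.203) without. The difference of the responses was 0.23 (SE 0.07, adjusted p = 0.0194), which missed the threshold without Y220C MS78 replicate 3 (0.19, adjusted p = 0.0502), with length-scaled TPM (0.22, adjusted p = 0.05499) and without the 4 libraries numbered 1 (0.23, adjusted p = 0.0574).

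The lines also differed in these transcripts. Under DMSO, CREBBP, KAT5 and KAT6B were higher and KAT2B, KAT6A and HAT1 lower in p53-Y220C than in p53-null cells, 6 of 10 genes where 50.2% of all genes were called (24.7% higher and 25.5% lower). Under MS78, CREBBP and KAT7 were higher and KAT2B lower, 3 of 10 genes against 61.8% of all genes (30.7% higher and 31.2% lower). The groups did not overlap for 5 of 10 genes under DMSO (CREBBP, KAT2B, KAT5, KAT6A and KAT6B), against 43.6% of all genes, and for 3 of 10 under MS78 (CREBBP, KAT2B and KAT7), against 56.4%. These comparisons use the same libraries as the responses above and are no separate evidence for them. CREBBP was higher in all p53-Y220C libraries than in all p53-null libraries of the same treatment, with log2 differences of 0.32 under DMSO (SE 0.07, adjusted p = 0.000593) and 0.28 under MS78 (SE 0.07, adjusted p = 0.00121). KAT2B was lower without overlap in both, with log2 differences of -0.22 under DMSO (adjusted p = 0.000711) and -0.44 under MS78 (adjusted p = 1.4e-07), and the second of these held under all 27 alternatives. EP300 missed the threshold in both, at -0.16 (adjusted p = 0.126) and -0.17 (adjusted p = 0.0887), but with no filter on low counts it passed under DMSO (-0.18, adjusted p = 0.0131) and under MS78 (-0.19, adjusted p = 0.00414). Under MS78 it also passed with only the groups compared (-0.17, adjusted p = 0.0310) and without Y220C DMSO replicate 2 (-0.17, adjusted p = 0.0314).

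Under DMSO the remaining calls were KAT6B at 0.37 (SE 0.07, adjusted p = 0.000119), KAT5 at 0.18 (adjusted p = 0.00675), KAT6A at -0.15 (adjusted p = 0.0300) and HAT1 at -0.15 (adjusted p = 0.0127). KAT6B, at 34.0, 31.9, 37.0 and 39.2 CPM in Y220C DMSO libraries, against 26.6, 26.1, 29.1 and 27.9 CPM in Null DMSO libraries, was at -0.08 under MS78 (adjusted p = 0.335), which passed without Y220C MS78 replicate 4 (-0.15, adjusted p = 0.0430). KAT7 was higher in p53-Y220C cells under MS78, by 0.17 (adjusted p = 0.000953), with 80.4 to 86.3 CPM in Y220C MS78 libraries, against 70.2 to 77.8 CPM in Null MS78 libraries. The KAT6A call was lost without Null DMSO replicate 3 or 4 or Y220C DMSO replicate 2 or 3 (adjusted p = 0.0584 to 0.116), and that of HAT1 without Y220C DMSO replicate 4 (adjusted p = 0.0518) or the 4 libraries numbered 1 (adjusted p = 0.0856). Among libraries without PTPRC reads both were lost, KAT6A at -0.17 (adjusted p = 0.0770) and HAT1 at -0.13 (adjusted p = 0.1104). Among libraries with PTPRC reads, none of the 6 DMSO calls remained, with CREBBP at 0.21 (adjusted p = 0.220) and KAT6B at 0.34 (adjusted p = 0.0610). KAT5 was lost with length-scaled TPM as well (0.13, adjusted p = 0.282). CREBBP was also lost with length-scaled TPM under DMSO (0.24, adjusted p = 0.0588) and MS78 (0.23, adjusted p = 0.0573), and under MS78 among libraries without PTPRC reads, as was KAT7 (0.16 and 0.14, adjusted p = 0.430 and 0.312).

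Ratios of paralogues within a library do not depend on the scaling between libraries. The ratio of EP300 to CREBBP reads was 0.809 to 0.995 in Y220C MS78 libraries, against 0.619 to 0.778 with DMSO, and 1.06 to 1.25 in Null MS78 libraries, against 0.921 to 1.11 with DMSO. KAT6A to KAT6B gave 1.45 to 1.71 in Y220C MS78 libraries, against 1.09 to 1.20 with DMSO, and 1.34 to 1.47 in Null MS78 libraries, against 1.55 to 1.69 with DMSO. The EP300 to CREBBP ratio was thus higher with MS78 in both lines, without overlap in p53-Y220C cells, and the KAT6A to KAT6B ratio was higher in p53-Y220C and lower in p53-null cells, without overlap in either. With TPM in place of reads the KAT6A to KAT6B groups overlapped in both lines, at 1.19 to 1.37 in Y220C MS78 libraries, against 0.876 to 1.24 with DMSO (exact permutation p = 0.114), and 1.07 to 1.68 in Null MS78 libraries, against 1.49 to 2.00 with DMSO (exact permutation p = 0.0857). On that scale the EP300 to CREBBP groups overlapped in p53-Y220C cells and not in p53-null cells. These ratios were chosen after their values were seen. Over 6 exact two-sided permutation tests (n = 4 each), the smallest p that the design allows, 0.0286, was reached by EP300 to CREBBP in p53-Y220C cells and KAT6A to KAT6B in both lines, each with a Benjamini-Hochberg adjusted p of 0.0571, so none passed. EP300 to CREBBP in p53-null cells had an exact permutation p of 0.0571 (adjusted p = 0.0686). KAT2A to KAT2B differed by -0.13 (exact permutation p = 0.343) in p53-Y220C and -0.38 (exact permutation p = 0.0571) in p53-null cells on the log2 scale.

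**Figure D4:**
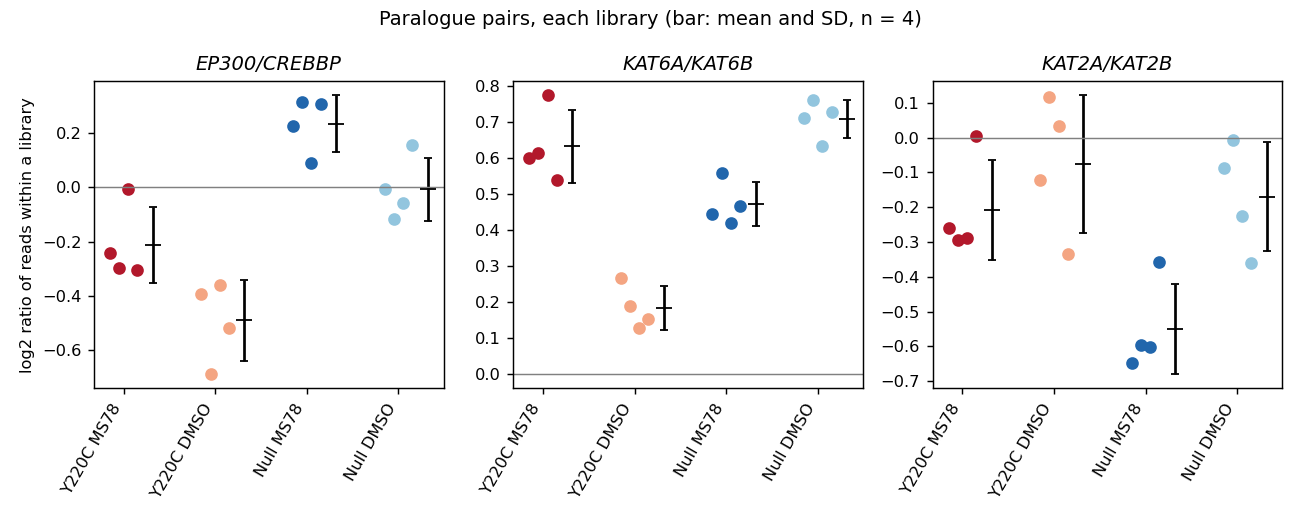
Log2 ratio of reads of paralogous genes within each library, by group, with the mean and SD of 4 libraries. The KAT6A to KAT6B ratio is higher with MS78 in p53-Y220C cells and lower with MS78 in p53-null cells.

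How the transcripts of each gene were made up was examined from the deposited TPM of single transcripts. EP300 is represented by 1 transcript of 9585 bases. CREBBP has 12, of which the leading one, 10803 bases long, held 46.3% of the gene's TPM, and KAT5 has 17, with 31.2% in the leading one. For KAT2B, KAT2A and HAT1 a single protein-coding transcript held 97.1%, 90.5% and 85.3% of TPM in that order. KAT8 stood out with 26.1% of its TPM in a retained-intron transcript. The protein-coding share of KAT8 TPM was 78.1 ± 1.21% with MS78 and 71.1 ± 4.96% with DMSO in p53-Y220C cells (exact two-sided permutation p = 0.0286, the smallest that 4 against 4 allows, adjusted p = 0.514 over 18 tests). None of the 18 tests of this share, over 9 genes and 2 lines, passed, and 1 of them had an unadjusted p under 0.05. A call would have needed many of the 18 tests to reach that smallest p, so the tests left little room for one. Reads are divided between such transcripts by estimation, so these shares are less certain than gene totals.

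Genes that work with the 10 enzymes were taken from lists of complex members, which were chosen with earlier results of these data known, and are described by counts and medians. The share of a list called is read beside that of all genes, 48.5% in p53-Y220C and 28.1% in p53-null cells. Over all genes the median log2 change with MS78 was -0.01 in p53-Y220C and 0.01 in p53-null cells. All 5 histone chaperone partners of HAT1 fell in both lines, with medians of -0.49 in p53-Y220C and -0.30 in p53-null cells. ASF1B, which hands histones H3 and H4 to assembly factors in dividing cells, averaged 25.6 ± 1.13 CPM with MS78 and 57.7 ± 3.90 CPM with DMSO in p53-Y220C cells (log2 fold change -1.17), and 42.2 ± 1.88 CPM with MS78 and 75.0 ± 3.28 CPM with DMSO in p53-null cells (-0.83). NASP, a chaperone of free histones, fell by 0.79 in p53-Y220C and by 0.30 in p53-null cells on the log2 scale, and ASF1A fell by 0.49 and by 0.30. RBBP4 and RBBP7, histone binding proteins of which RBBP7 is the HAT1 subunit, complete the list and also fell.

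The acetyl-CoA supply list, of which 8 of 9 genes were tested, had the largest single changes. ACSS2, which makes acetyl-CoA from acetate, averaged 426.2 ± 4.75 CPM with MS78 and 65.2 ± 1.94 CPM with DMSO in p53-Y220C cells (6.53-fold), and 297.8 ± 15.8 CPM with MS78 and 59.8 ± 1.61 CPM with DMSO in p53-null cells (4.98-fold). ACLY, which makes it from citrate, rose 4.16-fold in p53-Y220C and 3.81-fold in p53-null cells. SLC25A1, the mitochondrial citrate carrier, rose 1.57-fold and 1.71-fold in the same lines. In all, 4 of 8 rose and 3 fell in p53-Y220C cells (87.5% called, against 48.5% of all genes), and 5 rose and 1 fell in p53-null cells (75.0% against 28.1%), with medians of 0.25 and 0.33. All 6 of these values for ACSS2, ACLY and SLC25A1 stayed called under all 27 alternatives.

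Scaffold partners of KAT6A, KAT6B and KAT7 showed 1 large change: JADE2, a scaffold that directs KAT7 to histone H4, averaged 900.0 ± 37.6 CPM with MS78 and 427.7 ± 10.4 CPM with DMSO in p53-Y220C cells (2.10-fold). In p53-null cells it averaged 638.8 ± 23.8 CPM with MS78 and 296.3 ± 8.27 CPM with DMSO (2.16-fold). The other 8 moved little, with 2 of 9 rising and 2 falling in p53-Y220C cells and 1 rising and 2 falling in p53-null cells (44.4% and 33.3% called, against 48.5% and 28.1% of all genes; medians 0.01 and -0.08). BRPF3 rose by 0.34 and ING5 fell by 0.34 on the log2 scale in p53-Y220C cells, and JADE3 and JADE1 fell by 0.28 and by 0.24 in p53-null cells. ING5 was at -0.02 (adjusted p = 0.936) with length-scaled TPM.

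Of 16 NuA4 partners of KAT5, 4 rose and 6 fell in p53-Y220C cells, and 0 rose and 7 fell in p53-null cells (medians -0.06 and -0.04). That is 62.5% called in p53-Y220C cells, against 48.5% of all genes, and 43.8% in p53-null cells, against 28.1%. In p53-Y220C cells EPC1, the scaffold of the catalytic module, rose by 0.76 and MORF4L2, a relative of the chromodomain subunit MORF4L1, by 0.51, while the AAA+ ATPase RUVBL2 fell by 0.65. In p53-null cells YEATS4, ACTL6A and RUVBL1 fell by 0.37, 0.31 and 0.31. Of 22 SAGA and ATAC partners of KAT2A and KAT2B, 4 rose and 5 fell in p53-Y220C cells and 1 rose and 4 fell in p53-null cells (40.9% and 22.7% called, both below the shares of all genes; medians 0.02 and -0.03). SGF29, a reader of methylated histone H3, fell by 0.78 in p53-Y220C cells. The adaptor TADA2A fell by 0.59 in p53-Y220C and 0.33 in p53-null cells, the second of which was -0.05 (adjusted p = 0.836) with length-scaled TPM, and WDR5 fell by 0.29 and by 0.27. Of 10 MSL and NSL partners of KAT8, 3 rose and 3 fell in p53-Y220C cells and 0 rose and 3 fell in p53-null cells (6 and 3 of 10 called, where all genes gave 48.5% and 28.1%; medians 0.01 and -0.05). KANSL2 rose by 0.40 and HCFC1 fell by 0.40 in p53-Y220C cells, the second lost among libraries with PTPRC reads (-0.22). In p53-null cells KANSL2 went the other way, falling by 0.14 on the log2 scale (adjusted p = 0.0431), a call lost under 18 of 27 alternatives. The p53-null calls of ASF1A, ACTL6A, RUVBL1, TADA2A, JADE1, JADE3 and ESCO1 were lost among libraries without PTPRC reads (adjusted p = 0.09005 to 0.236). Those of TADA2A, JADE1, JADE3 and ESCO1 were lost among libraries with PTPRC reads as well (adjusted p = 0.0720 to 0.0978).

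Of 12 coactivator partners and regulators of p300 and CBP, 6 rose and 3 fell in p53-Y220C cells and 3 rose and 0 fell in p53-null cells (medians 0.18 and 0.11). The share called was 75.0% in p53-Y220C cells, against 48.5% of all genes, and 25.0% in p53-null cells, near the 28.1% of all genes. The responses of the lines differed for 8 of 12, 3 higher and 5 lower in p53-Y220C cells (66.7%, against 26.8% of all genes). A high share was not limited to this list. The responses also differed for 6 of 10 MSL and NSL partners, 4 of 9 scaffold partners and 2 of 5 histone chaperone partners. The counts were 3 of 8 for acetyl-CoA supply, 5 of 16 for NuA4 and 6 of 22 for SAGA and ATAC partners. Among other acetyltransferases the responses differed for 1 of 14. SIRT1, a deacetylase of p53 and other proteins, averaged 86.6 ± 1.13 CPM with MS78 and 60.3 ± 1.69 CPM with DMSO in p53-Y220C cells (log2 fold change 0.52). MAML3 fell by 0.45 in p53-Y220C cells (adjusted p = 0.000593), a call lost among libraries without PTPRC reads (-0.35). In p53-null cells CITED2 and CITED4, which bind the same domain of p300 and CBP as several activators, both rose by 0.79, and the CITED4 call was lost among libraries with PTPRC reads (0.41, adjusted p = 0.138). Of 14 other acetyltransferases, 4 rose and 3 fell in p53-Y220C cells and 2 rose and 2 fell in p53-null cells (7 and 4 of 14 called, near the shares of all genes; medians -0.06 and 0.02). ESCO2, which acetylates cohesin in S phase, fell by 0.79 in p53-Y220C and by 0.90 in p53-null cells, whereas its paralogue ESCO1 rose by 0.40 and by 0.27.

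**Figure D5:**
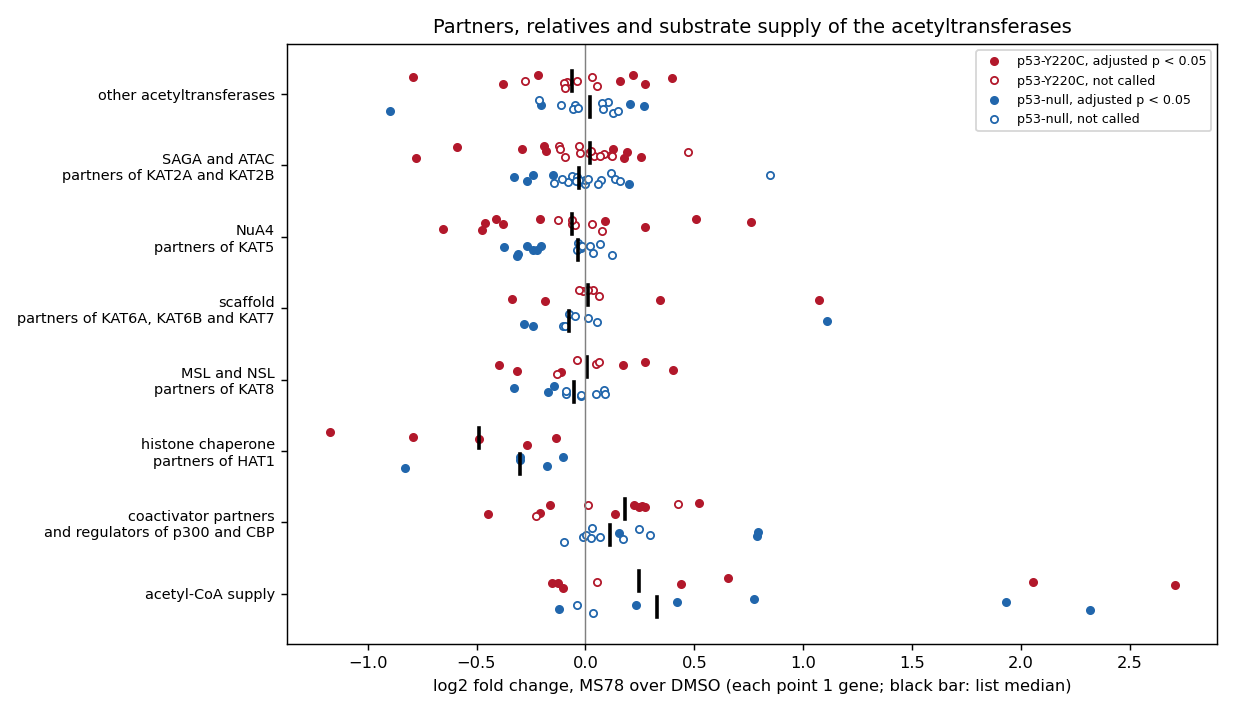
Log2 fold change, MS78 over DMSO, of each partner gene in p53-Y220C cells (red) and p53-null cells (blue), filled where the adjusted p was under 0.05, with the list median as a black bar. The histone chaperone partners of HAT1 lie left of 0 in both lines, and ACSS2 and ACLY are the points farthest to the right.

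The genes whose log2 CPM most resembled that of EP300 over the 16 libraries were TRIP12 (Pearson r 0.965), TRIM33 (0.921), DOCK10 (0.911) and CHD9 (0.900), among 12229 protein-coding genes with a mean of at least 1 CPM. For CREBBP they were CCDC88C (0.941), GCC2 (0.936), HUWE1 (0.934) and MICAL3 (0.934). TRIP12 averaged 407.7 CPM in Y220C MS78, 354.1 CPM in Y220C DMSO, 430.0 CPM in Null MS78 and 380.7 CPM in Null DMSO libraries, the same order of groups as EP300. TRIM33 and CHD9 shared that order. DOCK10 did not, at 19.1 CPM in Null DMSO and 18.4 CPM in Y220C MS78 libraries. The genes were picked by this resemblance, so a shared order is no separate evidence. These correlations describe 16 libraries that share groups, depth and PTPRC status, and carry no p.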

How the data were processed

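Poly(A) RNA-seq was analysed from 16 libraries in 4 groups of 4, grouped by the labels. Estimated counts per transcript, not normalized, were made by the authors, per the file headers. The deposited TPM was scaled by the authors to effective transcript length, per the file headers. FastQC 0.11.8 and build hg38 are given per the submitters' processing notes, and the quantifier's version, annotation and strand setting were not given in the sources used here.

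Of 197653 transcripts, 97.8% matched GENCODE 29 (GRCh38) by identifier. Their estimated counts were summed per gene and rounded, and unmatched transcripts held at most 0.325% of reads. Depth was 20.3 to 27.7 M reads, and counting error at that depth was not treated apart from library spread. Tests were run in edgeR 4.0.16 under R 4.3.3 (filterByExpr, TMM, glmQLFit, glmQLFTest) in 1 fit of 16 libraries with 12 residual degrees of freedom, after testing the fit on simulated data. P-values were adjusted by Benjamini-Hochberg over 15687 genes with a threshold of 0.05. SE was taken as the absolute log2 fold change over the square root of F. CPM uses TMM-scaled library sizes. Ratios and transcript shares were compared with exact two-sided permutation tests (SciPy 1.17.1).

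The members and lists were chosen with earlier results of these data known. Of each partner list, up to 3 genes per MS78 comparison with the largest change among those called were eligible to be named. The named members are the whole list of 10. Alternatives were RLE scaling, other filters, length-scaled TPM, only the groups compared, a replicate block, a PTPRC term, the PTPRC sets, DESeq2 1.42.0 and leaving out each library. The transcript of the transgene is not reported here. No libraries agreed within sampling noise, with a chi-square per gene of at least 2.47 between replicates.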

Additional observations from a re-analysis of the deposited data

Results flagged for a closer look

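In 3 of 40 groups of 4 libraries a single library stood apart from the other 3, and chance alone gives about 1 in 20. KAT2A was at 33.2 CPM in Null MS78 replicate 4, against 27.3 to 27.8 CPM in the other Null MS78 libraries. KAT2B was at 29.4 CPM in Y220C MS78 replicate 4, where the others were at 31.7 to 31.8 CPM. KAT8 was at 16.3 CPM in Y220C MS78 replicate 3, where the others were at 18.3 to 18.6 CPM.

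The response to MS78 differed between p53-Y220C and p53-null cells, by the test of the difference itself, for 5 genes. On the log2 scale, p53-Y220C minus p53-null, KAT2B differed by -0.22, KAT5 by -0.22, KAT6A by 0.23, KAT6B by -0.45 and HAT1 by 0.23 (edgeR's quasi-likelihood test, adjusted p of 0.0254, 0.0392, 0.0400, 0.00157 and 0.0194 in that order). KAT6B was the 1 gene of the 10 that passed in opposite directions, lower with MS78 in p53-Y220C cells and higher in p53-null cells. None of the 5 passed within either set of 8 libraries split by PTPRC reads.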

How the results depend on the processing

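Over the 10 genes, 5 comparisons and up to 27 alternatives, 1203 of 1340 log2 fold changes kept their side of the threshold and, where called, their direction, 122 lost a call, 15 gained one and 0 called values changed sign. A change of sign occurred in 38 values that had not passed, none larger than 0.17. Of 48 named partner values, 30 stayed called under all their alternatives and 0 changed sign.

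Counts of members and of all genes moved most within the PTPRC sets. Members that rose or fell with MS78 in p53-Y220C cells were 2 and 3. Without PTPRC reads both were 0 (all genes 3490), with them the fallen were 0, with a PTPRC term or without the 4 libraries numbered 1 (an alternative chosen after seeing the data) the fallen were 1, and with length-scaled TPM the risen were 1. In p53-null cells (3 and 3), without PTPRC reads both were 0 (all genes 1070), with them the risen were 1 (all genes 2346), with length-scaled TPM the risen were 1 (all genes 2838), and without the libraries numbered 1 the risen were 1. For the difference of the responses (2 and 3), both PTPRC sets gave 0 and 0 (all genes 1870 with those reads and 411 without), length-scaled TPM gave 1 and 1 (all genes 2739), and leaving out the libraries numbered 1 gave 1 higher. For p53-Y220C against p53-null under DMSO (3 and 3), libraries with PTPRC reads gave 0 and 0 (all genes 3817), those without gave 1 lower, and length-scaled TPM gave 1 higher. Under MS78 (2 and 1), length-scaled TPM gave 1 higher, libraries without PTPRC reads gave 0 higher (all genes 4184), and no low-count filter and only the groups compared each gave 2 lower. The PTPRC sets hold fewer libraries. For length-scaled TPM the cause was not tested.

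Leaving out 1 library at a time gave 2 to 2 risen, 1 to 4 fallen and 6966 to 7647 genes called in p53-Y220C cells; 1 to 3, 2 to 3 and 3688 to 4587 in p53-null cells; 0 to 2, 1 to 3 and 3685 to 4250 for the difference; 3 to 3, 2 to 3 and 7270 to 7938 for the lines under DMSO; and 2 to 2, 1 to 2 and 9238 to 9867 under MS78. Protein-coding shares gave 0 calls throughout. With 1 library left out, the adjusted exact tests of these shares could not give a call, so no conclusion is drawn from that. With TPM in place of reads, the log2 ratio of EP300 to CREBBP with MS78 exceeded that with DMSO by 0.29 in p53-Y220C cells (exact permutation p = 0.143) and by 0.28 in p53-null cells (exact permutation p = 0.0286, adjusted p = 0.171). With the replicate block, members risen and fallen were 2 and 2 in p53-Y220C cells (7442 genes called), 3 and 2 in p53-null cells (4251), 2 and 3 for the difference (4060), 3 and 3 under DMSO (7774) and 2 and 1 under MS78 (9623). The deviations of same-numbered libraries of the 2 lines from their group means correlated at 0.09 to 0.54 under MS78 and -0.11 to 0.48 under DMSO, positive in 7 of 8 pairs, and 5 of 8 p53-Y220C libraries correlated best with their own number. Across treatments all 16 correlations were negative, the lowest -0.54. Not every pair passed 0.1, so the numbers were not taken to pair the samples; within a treatment, same-numbered libraries share PTPRC status. In p53-Y220C cells a fall of 0.14 on the log2 scale passed for KAT5 and HAT1 but not for KAT8, so smaller changes may have gone undetected at this number of libraries.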
